A study of Mus musculus with 3 samples.

Results

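The 10 genes described here serve protein synthesis in the cytosol: the ribosomal proteins Rpl24, Rpl35a, Rpl39l and Fau, the initiation factors Eif4g1 and Eif4a2, the termination factor Gspt1, the ribosome assembly factors Rsl1d1 and Lsg1, and the mRNA-binding protein Igf2bp2. They were taken by gene symbol, with the highest row of each gene identifier, and are 10 of the 38205 gene identifiers in each deposited table. All 10 were found with status OK in all 3 libraries, and all passed the minimum value of 1. On the deposited scale, 9 of them stayed close to their WT level across genotypes. The remaining 1, Rpl39l, was lower than WT in both transgenic libraries, on few fragments. It was lowest in the homozygous library, but the difference between the transgenic libraries was within counting error.

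RNA was sequenced from LSK cells of C57Bl/6 mouse fetal livers at E14.5. LSK cells are sorted as negative for lineage markers and positive for Sca1 and c-Kit, and blood stem cells and early progenitors are among them. The embryos were homozygous for a DNMT3B7 transgene, hemizygous for it, or WT. DNMT3B7 is a shortened version of DNMT3B, an enzyme that sets DNA methylation. Each genotype was 1 library from the pooled cells of 4 to 5 embryos, so the libraries compare pools and no difference below has a replicate check. All embryos shared strain and age. The promoter that drives the transgene is not given in the sources used here.

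Ribosomes are built in the nucleolus from ribosomal RNA and ribosomal proteins, and their large subunit is finished in the cytosol. An mRNA is loaded through the cap-binding complex, in which the scaffold eIF4G holds the helicase eIF4A, and a finished chain is let go at a stop codon by release factors. Blood stem cells of adult bone marrow are known for a low rate of protein synthesis. Loss of single ribosomal proteins is known to impair the making of red blood cells. The mRNAs of many mammalian translation genes begin with a C and a run of pyrimidines, the terminal oligopyrimidine tract, through which the mTOR pathway controls their translation.

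The start-site sequences of 5 of the genes are shown because they include all 3 that had such a tract. Each window holds the 10 bases before the annotated start and the 20 bases from it, from RefSeq on GRCm38.p6, read 5′ to 3′ on the transcribed strand. Capitals mark the tract, defined as a C followed by at least 4 more C or T bases and beginning within 5 bases of the start. Rpl39l and Rpl24, which lacked it, are printed for comparison.
Fau, chr19:6057937-6057966, plus strand: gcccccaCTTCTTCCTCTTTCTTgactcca
Rpl35a, the second of its 3 starts, chr16:33056472-33056501, plus strand: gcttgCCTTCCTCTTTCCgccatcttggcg
Eif4g1, chr16:20672717-20672746, plus strand: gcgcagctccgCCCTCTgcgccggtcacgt
Rpl24, chr16:55966265-55966294, plus strand: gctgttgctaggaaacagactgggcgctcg
Rpl39l, chr16:10170218-10170247, plus strand: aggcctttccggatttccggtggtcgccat

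The tract of Fau ran for 16 bases and that of Rpl35a for 13, against 6 in Eif4g1. It was found in 3 of the 10 genes, and in 18.3% of the 32851 start sites of the whole promoter table, or 21.2% of its 27025 genes. The search covered the transcribed strand only. The window of Rpl39l holds a run of C and T that ends just before the start, and it was not counted because it begins outside the limit. A window without the tract says only that none was found under this definition.

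Values are the deposited FPKM (fragments per transcript length and library depth) divided by 1 factor common to all libraries, which leaves ratios as deposited. For example, the WT value of Fau of 9340.1 was deposited as 39648900. Libraries were compared only over genes in register. On 10 chromosomes the genes with a deposited FPKM of at least 200000 were frequent up to a break and rare beyond it, and genes before a break, with the mitochondrial genes, are called in register (1452 genes). On chromosome 16, which carries 9 of the 10 genes, 42.7% of fitted genes before the break were high and 0% after it. On chromosome 19, which carries Fau, the shares were 58.3% and 3.8%. Of 85 cytosolic ribosomal protein genes in the tables, 81 lay outside these segments and 42 were listed at 0 in all 3 libraries, so the 4 described here are the only ones that could be read. Ly6a and Kit, which encode the gate proteins Sca1 and c-Kit, also lay outside, as did Cd34 and Ptprc, other genes of early blood cells. Their values were at most 3.41, and the LSK label could not be checked on them. Low values tended to stand in whole multiples of 1 unit, taken as 1 fragment. The estimated totals were 2289570 fragments for the homozygous, 2977430 for the hemizygous and 2966340 for the WT library. Mitochondrial mRNA took 51.4%, 60.4% and 64.2% of the fragments in register in the homozygous, hemizygous and WT libraries. The 95% counting intervals given below come from these fragments and cover counting error only.

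In WT cells the 10 genes spanned a wide range of levels per transcript length. Among 957 nuclear genes in register with a value of 1 or more in some library, whose median WT value was 57.1, Fau ranked 2, Eif4a2 ranked 11, Eif4g1 ranked 24, Rpl24 ranked 32, Rsl1d1 ranked 34 and Gspt1 ranked 37. Rpl35a ranked 126, Lsg1 and Igf2bp2 ranked 272 and 273, and Rpl39l ranked 653. Neighbours in this order were apart by their counting intervals except for Rpl24 and Rsl1d1, Rsl1d1 and Gspt1, and Lsg1 and Igf2bp2. Fau was 3.75 times the next gene, Eif4a2, and Igf2bp2 was 8.7 times Rpl39l.

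**Figure D1:**
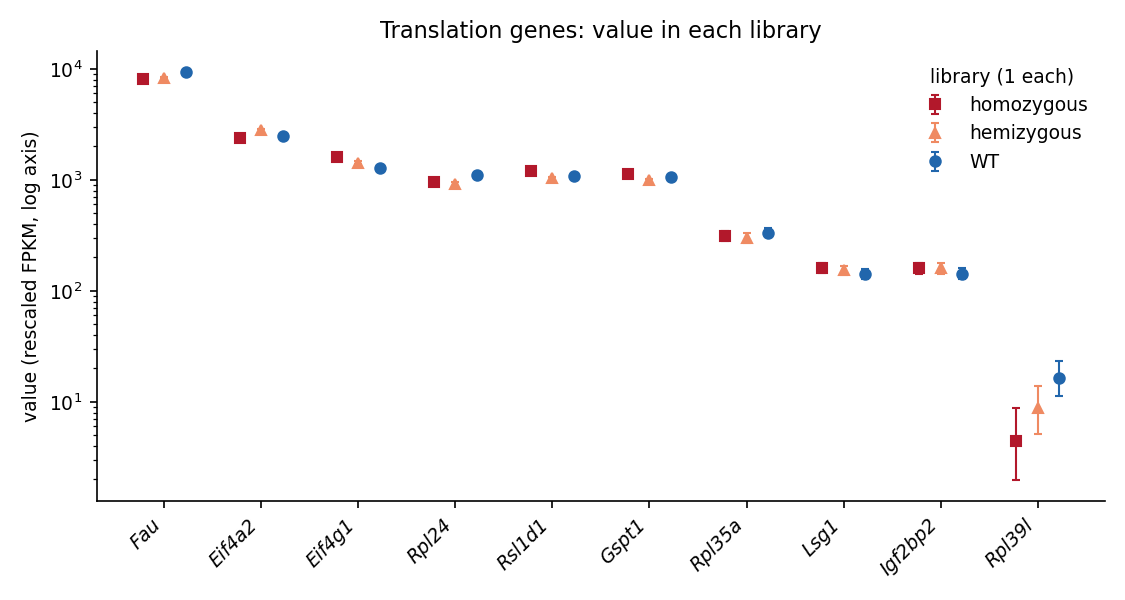
Value of each of the 10 genes (rescaled FPKM, log axis) in the homozygous, hemizygous and WT libraries, 1 library each, in order of the WT value; bars are 95% counting intervals. The 3 points of a gene lie close together for every gene but Rpl39l, whose value was 4.47 in the homozygous, 8.74 in the hemizygous and 16.4 in the WT library.

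Differences between libraries are given as the log2 ratio of value + 1, the homozygous or hemizygous library over WT, or the homozygous over the hemizygous library. A gene was counted as higher or lower when the ratio was at least 2-fold. In the homozygous library against WT, 1 of the 10 genes was lower (Rpl39l), where 2.3% of the 955 genes measured were lower, and 0 were higher, where 2.09% were. In the hemizygous library against WT, 0 of the 10 were lower and 0 higher, beside 0.943% and 1.78% of 954 genes. In the homozygous against the hemizygous library, 0 were lower and 0 higher, beside 2.91% and 1.66% of 962 genes. At a smaller size, 1.25-fold in either direction, Rpl39l alone of the 10 was past the limit in each comparison, beside 26.8% of genes in the homozygous library against WT, 22.5% in the hemizygous library against WT and 28.1% between the transgenic libraries. This holds on the deposited scale. With libraries brought to the same sum over all genes other than small RNA genes, Eif4g1 (0.72), Lsg1, Igf2bp2, Rsl1d1, Gspt1 and Eif4a2 (0.35) were also past it in the homozygous library against WT. The median of all genes, at 0.35, was then past it too. With 1 library a genotype there is no p-value.

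**Figure D2:**
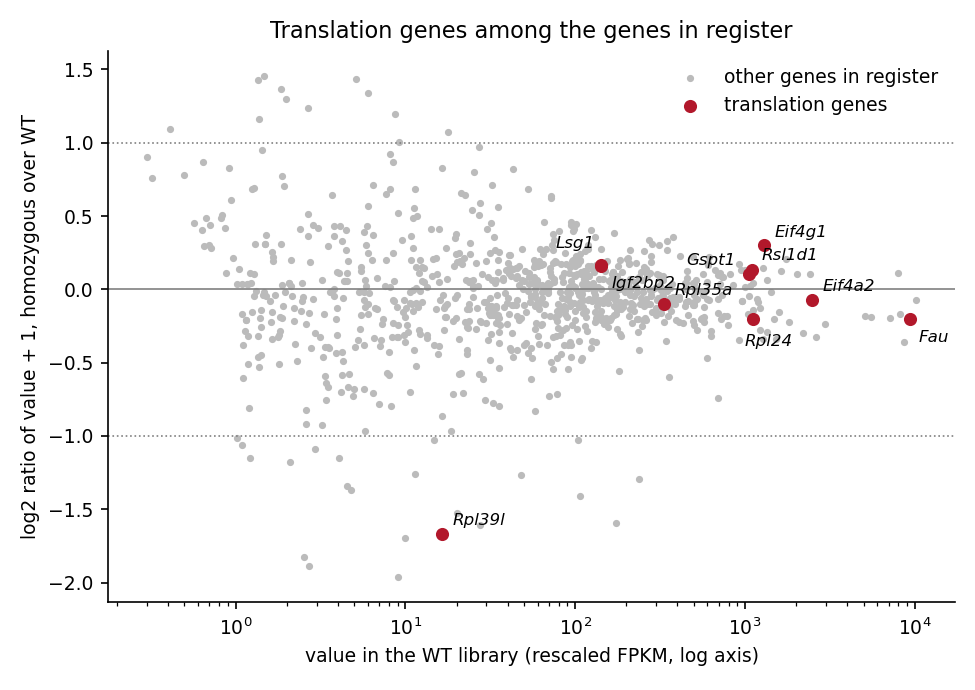
Log2 ratio of value + 1, homozygous over WT, against the WT value (rescaled FPKM, log axis) for the measured nuclear genes in register with a WT value above 0 (grey) and the 10 translation genes (red); dotted lines mark 2-fold. Rpl39l lies at -1.67, and the other 9 genes lie between -0.20 and 0.30.

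The abundant ribosomal proteins had slightly lower values in both transgenic libraries. Fau (ENSMUSG00000038274), which encodes a ubiquitin-like protein fused to the small-subunit ribosomal protein eS30, had a value of 8107 in the homozygous library and 8269 in the hemizygous library, against 9340.1 in WT. Its log2 ratio was -0.20 in the homozygous library, with a 95% counting interval of -0.24 to -0.16, and -0.18 in the hemizygous library, with an interval of -0.21 to -0.14. The transgenic libraries were level with each other, at a log2 ratio of -0.03.

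Rpl24 (ENSMUSG00000022601), a large-subunit protein that forms a bridge to the small subunit, had a value of 964 in the homozygous library and 907 in the hemizygous library, against 1111 in WT. Both transgenic libraries were below WT. The hemizygous library had the lowest value, but the log2 ratio between the transgenic libraries, 0.09, had an interval of -0.02 to 0.20 that includes 0. The log2 ratio was -0.20 (interval -0.31 to -0.10) for the homozygous library and -0.29 (interval -0.40 to -0.19) for the hemizygous library. The row is uncertain in a further way: GENCODE M21 gives its identifier to Zbtb11, a neighbouring gene, so the row may hold the RNA of both.

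Rpl35a (ENSMUSG00000060636), a large-subunit protein whose human gene is mutated in some cases of Diamond-Blackfan anaemia, had a value of 312 in the homozygous library and 298 in the hemizygous library, against 334 in WT. Its log2 ratios of -0.10 and -0.16 had intervals that included 0, at -0.30 to 0.10 for the homozygous and -0.36 to 0.03 for the hemizygous library. The 3 genes kept nearly the same proportions in each library. Fau was 8.41 times Rpl24 in the homozygous library, 9.12 times in the hemizygous library and 8.41 times in WT, and Rpl35a was 32.3%, 32.8% and 30.04% of Rpl24 in the homozygous, hemizygous and WT libraries.

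In the homozygous library the direction of these small ratios depends on how libraries are scaled. With median-ratio scaling over measured genes, Fau, Rpl24 and Rpl35a stayed below 0, at -0.16, -0.16 and -0.05. With the same sum over nuclear genes in register they were at -0.13, -0.13 and -0.02. With the same sum over all genes other than small RNA genes, their homozygous ratios became 0.21, 0.21 and 0.32. The median of all genes then moved to 0.35 from -0.04. That sum was 858654 in the homozygous and 1147650 in the WT library, of which mitochondrial mRNA held 380660 and 648464. A factor per library shifts the genes and their median together, and all 3 lay below the median. In the hemizygous library their ratios under the same-sum scaling were -0.02, -0.14 and -0.01, where the median of all genes was 0.17. Read sharing also limits these genes. Of the 50-base stretches in annotated transcripts, 51.8% of those of Rpl24, 29.97% of those of Fau and 6.36% of those of Rpl35a also occur in another gene. For Fau the other gene is a single processed pseudogene, Gm9843, which was itself listed at 2075 in the homozygous, 2155 in the hemizygous and 2598 in the WT library.

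**Figure D3:**
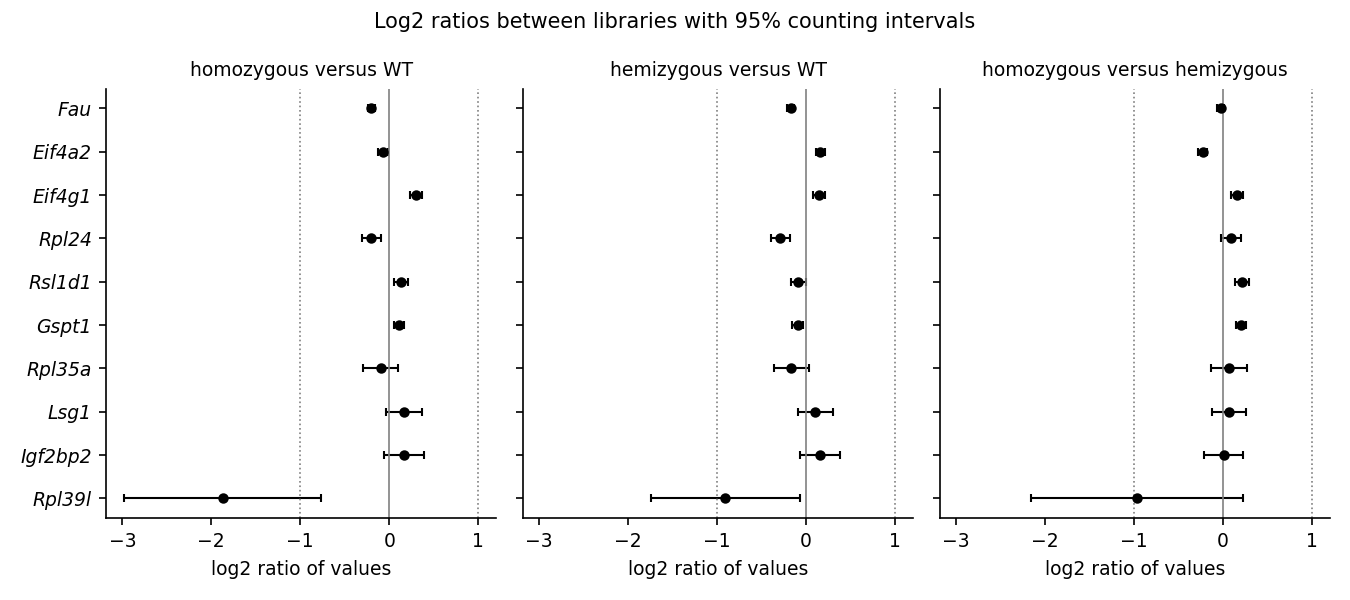
Plain log2 ratio of values of the 10 genes in the 3 comparisons (homozygous versus WT, hemizygous versus WT, homozygous versus hemizygous), with 95% counting intervals; dotted lines mark 2-fold. In each comparison Rpl39l has the widest interval of the 10 genes, -2.98 to -0.77 in homozygous versus WT, and Fau the narrowest.

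Rpl39l was the exception. Rpl39l (ENSMUSG00000039209) is a copy of the ribosomal protein gene Rpl39 and is known in mouse for its expression in male germ cells. Its value was 4.47 in the homozygous library and 8.74 in the hemizygous library, against 16.4 in WT, or about 8.24, 17.8 and 31.5 estimated fragments. The order of the 3 libraries follows the number of transgenic alleles. The log2 ratio was -1.67 in the homozygous library and -0.84 in the hemizygous library. On the plain ratio the values were -1.87 (interval -2.98 to -0.77) and -0.91 (interval -1.75 to -0.07). Between the homozygous and the hemizygous library the plain log2 ratio was -0.97, with an interval of -2.16 to 0.23 that includes 0. As a share of Rpl35a in the same library, which no scaling alters, Rpl39l came to 1.43% (interval 0.72 to 2.86) in the homozygous, 2.94% (1.83 to 4.72) in the hemizygous and 4.91% (3.42 to 7.06) in the WT library. Under the same-sum scaling the homozygous ratio to WT was -1.30, still past 2-fold.

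The coding sequences of Rpl39l and Rpl39 are printed because the low value of Rpl39l is readable only if its reads can be told from those of its parent. Both are 156 bases long, from GENCODE M21 transcripts on GRCm38 (chromosome 16 for Rpl39l, chromosome X for Rpl39), and capitals mark the bases that differ.
Rpl39l: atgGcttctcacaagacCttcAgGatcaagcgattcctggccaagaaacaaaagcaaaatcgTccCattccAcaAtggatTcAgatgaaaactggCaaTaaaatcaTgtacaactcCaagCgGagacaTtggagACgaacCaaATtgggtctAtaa
Rpl39: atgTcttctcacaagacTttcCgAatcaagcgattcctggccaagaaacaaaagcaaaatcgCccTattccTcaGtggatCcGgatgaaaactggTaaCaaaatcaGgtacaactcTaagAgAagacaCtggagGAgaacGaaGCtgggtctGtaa

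The pair matched at 133 of 156 bases (85.3%), with 23 differences spread along the sequence and a longest identical run of 38 bases. None of the 828 stretches of 50 bases in Rpl39l transcripts occurred in any other annotated gene (0%). Rpl39 itself lay outside the segments that could be read and was listed at 0 in all 3 libraries, so the parent gene and the copy could not be compared.

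The 5 genes whose pair of log2 ratios to WT lay nearest to that of Rpl39l, of 808 genes that reached a value of 5 in some library, were Vpreb1, Mrpl39, Gm16147, Gm20695 and Popdc2. Vpreb1, a surrogate light chain gene of early B cells, had a value of 57 in the homozygous library and 122 in the hemizygous library, against 174 in WT, with log2 ratios to WT of -1.59 and -0.51. Mrpl39, a protein of the mitochondrial ribosome, had values of 6.29 and 14.1, against 20.01 in WT. Popdc2 stood at 8.31 and 22.7, against 27.4 in WT. Gm16147 and Gm20695 rest on few estimated fragments. In the homozygous, hemizygous and WT libraries these were about 1.06, 4.23 and 6.32 for Gm16147, and 5.76, 9.51 and 25.2 for Gm20695. Likeness here rests on 3 libraries and was measured as the distance between pairs of ratios.

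Of the B lymphoid and myeloid markers in register, all but Mmp8 stood in the same order of libraries as Rpl39l on the deposited scale. The 3 listed B lymphoid markers in register, Igll1, Vpreb1 and Vpreb2, summed to 192 in the homozygous library and 400.4 in the hemizygous library, against 517 in WT. Vpreb1 was already picked above for its likeness to Rpl39l, so its order adds nothing here. In the homozygous, hemizygous and WT libraries Igll1 had 95.5, 190.0 and 235.9, and Vpreb2 had 39.7, 88.3 and 107.1. Cd79a lay outside the readable segments, with values of at most 0.62. The 2 myeloid markers in register, Cebpd and Mmp8, summed to 35.8 in the homozygous library and 39.7 in the hemizygous library, against 45.6 in WT. Cebpd made up most of this sum, and Mmp8 was highest in the hemizygous library. Mmp8 had 1.61 in the homozygous and 3.64 in the hemizygous library, against 3.41 in WT. The 2 vessel wall markers in register, Col4a1 and Col4a2, ran the other way, at a sum of 99.3 in the homozygous and 68.1 in the hemizygous library, against 52.6 in WT. The 2 platelet markers in register, Gp5 and Gp1bb, summed to 34.9 in the homozygous and 20.8 in the hemizygous library, against 22.0 in WT. They differed from each other: Gp5 was highest in the homozygous library, at 30.1 against 16.5 in WT. Gp1bb was highest in WT, at 5.50 against 4.76 in the homozygous library. The 4 red cell genes in register summed to 3285, 4012 and 3987 in the homozygous, hemizygous and WT libraries. Singly they differed. In the same order of libraries, Car2 had 1786, 2091 and 2200, which is the order of Rpl39l. Car1 was highest in the homozygous library, at 76.7 against 65.0 in the hemizygous library and 64.7 in WT. Tfrc (1013, 1414 and 1280) and Cpox (408.7, 442.1 and 441.6) were lowest in the homozygous and highest in the hemizygous library. The part of these markers in the Rpl39l difference was not tested. In sorted bulk cells fewer cells of a type and less RNA per cell cannot be told apart.

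Among the 9 genes other than Rpl39l, the initiation factor Eif4g1 lay farthest from WT in the homozygous library. Eif4g1 (ENSMUSG00000045983) encodes eIF4GI, the scaffold that binds the cap-binding protein, the helicase eIF4A and eIF3. Its value was 1589 in the homozygous library and 1425 in the hemizygous library, against 1288 in WT. Its log2 ratio was 0.30 (interval 0.24 to 0.37) in the homozygous and 0.14 (interval 0.08 to 0.21) in the hemizygous library, and 0.16 (interval 0.09 to 0.22) between the transgenic libraries. Eif4g1 was above WT in both transgenic libraries under each of the 4 scalings tried, up to 0.72 in the homozygous library.

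Eif4a2 (ENSMUSG00000022884) encodes eIF4AII, a DEAD-box helicase of the eIF4A family. Its value was 2369.7 in the homozygous library and 2782 in the hemizygous library, against 2489.7 in WT, so the hemizygous library was the highest. The log2 ratio to WT was -0.07 (interval -0.13 to -0.02) in the homozygous and 0.16 (interval 0.11 to 0.21) in the hemizygous library. The homozygous ratio turned to 0.35 under the same-sum scaling, and was -0.03 under the median-ratio and 0.001 under the nuclear-sum scaling. Set against each other within a library, where scaling plays no part, Eif4g1 was 67.1% of Eif4a2 in the homozygous library (interval 64.4 to 69.9), 51.2% in the hemizygous library (49.2 to 53.3) and 51.7% in WT (49.6 to 54.0). The interval of the homozygous library lies above both others. Of the 50-base stretches of Eif4a2, 13.6% occur elsewhere, and exons of Rfc4 overlap it on the opposite strand. Whether counting used strand is not given in the sources used here. Small nucleolar RNA genes overlap both Eif4a2 and Eif4g1 on the same strand. Of those on Eif4a2, Gm24616 had the highest values, at 507 in the homozygous, 1177 in the hemizygous and 899 in the WT library. Snord66, on Eif4g1, was listed at 0, 1162 and 0 in the same order. Their part in the values of Eif4a2 and Eif4g1 was not tested.

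Gspt1 (ENSMUSG00000062203) encodes the release factor eRF3a, a GTPase that works with eRF1 at stop codons. Its value was 1137 in the homozygous library and 988 in the hemizygous library, against 1055.8 in WT. WT lay between the transgenic libraries. The log2 ratio to WT was 0.11 (interval 0.05 to 0.16) in the homozygous and -0.10 (interval -0.15 to -0.04) in the hemizygous library. The hemizygous sign turned to 0.06 under the same-sum scaling. It stayed below 0 under the median-ratio scaling (-0.12) and the nuclear-sum scaling (-0.05). Of its 50-base stretches, 3.29% occur in other genes.

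The ribosome assembly factors were close to WT. Rsl1d1 (ENSMUSG00000005846), a nucleolar protein with a ribosomal L1 domain, had a value of 1195 in the homozygous library and 1028 in the hemizygous library, against 1093 in WT. Its ratios resembled those of Gspt1, with 0.13 (interval 0.05 to 0.21) in the homozygous and -0.09 (interval -0.17 to -0.01) in the hemizygous library. For the hemizygous library the same-sum scaling gave 0.07, the median-ratio scaling -0.11 and the nuclear-sum scaling -0.04. Lsg1 (ENSMUSG00000022538), a GTPase that takes the export adaptor NMD3 off the large subunit in the cytosol, had a value of 160.4 in the homozygous library and 153 in the hemizygous library, against 143 in WT. Its intervals included 0 against WT, at -0.03 to 0.37 around 0.17 for the homozygous and -0.09 to 0.30 around 0.10 for the hemizygous library.

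Igf2bp2 (ENSMUSG00000033581) encodes an RNA-binding protein known to stabilise its target mRNAs and to influence their translation. Its value was 159.8 in the homozygous library and 159 in the hemizygous library, against 143 in WT. The transgenic libraries were level with each other. The log2 ratio to WT was 0.16 in both, with intervals of -0.06 to 0.39 in the homozygous and -0.06 to 0.38 in the hemizygous library.

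Across the 10 genes, the counting interval lay wholly above 0 for 3 and wholly below 0 for 4 in the homozygous library against WT, beside 14.3% and 18.8% of 942 genes. In the hemizygous library against WT it lay above 0 for 2 and below 0 for 5, beside 17.5% and 14.6% of 943 genes. Between the homozygous and hemizygous libraries it lay above 0 for 3 and below 0 for 1, beside 9.09% and 20.4% of 946 genes. With fragments counted over the longest transcript of each gene, in place of the median one, the intervals narrow. Then 5 of the 10 lay above 0 and 5 below in the homozygous library against WT (20.8% and 26.4% of genes), and 4 above and 6 below in the hemizygous library against WT (26.1% and 19.9% of genes). An interval that leaves out 0 is reached more readily by abundant genes, and 6 of the 10 ranked 37 or higher. The median log2 ratio of the 10 genes was 0.02 in the homozygous library against WT, where that of all measured genes was -0.04. It was -0.09 beside 0.02 in the hemizygous library against WT, and 0.07 beside -0.06 in the homozygous against the hemizygous library.

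**Figure D4:**
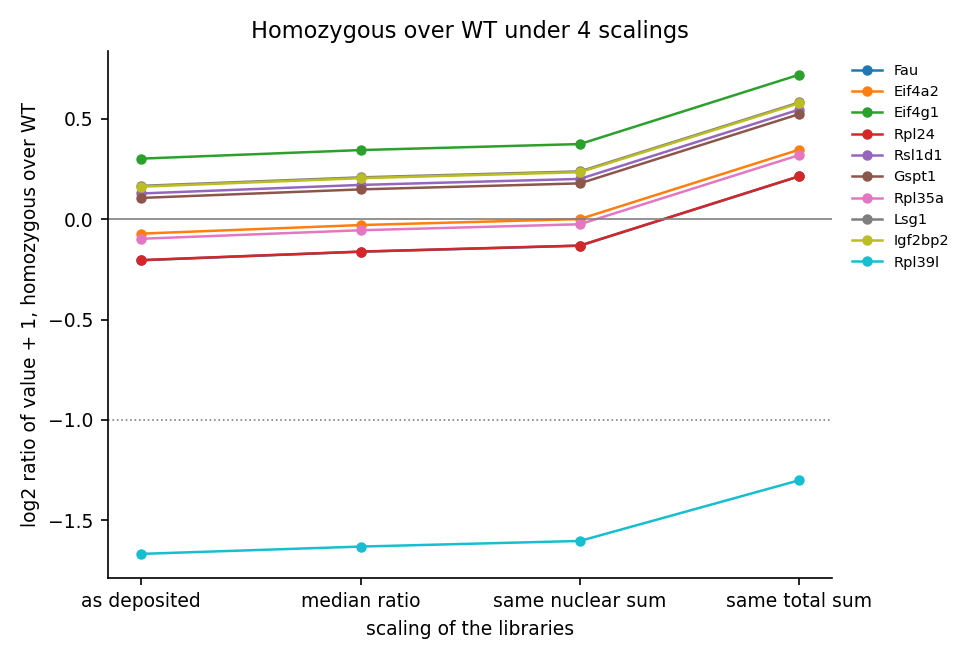
Log2 ratio of value + 1, homozygous over WT, for the 10 genes as deposited and with libraries scaled by median ratio, to the same sum over nuclear genes in register, and to the same sum over all genes other than small RNA genes. Under the last scaling 9 of the 10 genes lie above 0, and the order of the genes is kept; the lines of Fau and Rpl24, and those of Lsg1 and Igf2bp2, lie on each other.

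Other translation genes in register were few. Of 558 genes in 9 lists by role, 31 were in register, and 21 of these were not among the 10. Against WT, 0 of the 21 were higher and 1 was lower in the homozygous library, beside 2.09% and 2.3% of all measured genes. The hemizygous library had 0 in either direction, beside 1.78% higher and 0.943% lower. Between the transgenic libraries 0 were higher and 1 was lower, beside 1.66% and 2.91% of all measured genes. The lower gene was Mrpl39 both times, at -1.53 and -1.05. Within 1.25-fold of WT, as deposited, were 18 of the 21 in the homozygous and 19 in the hemizygous library. Of all measured genes, 26.8% in the homozygous and 22.5% in the hemizygous library were past that limit.

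The 7 mitochondrial ribosomal protein genes in register had log2 ratios to WT below 0 in both transgenic libraries, as did 56.2% of all measured genes in the homozygous and 45.9% in the hemizygous library. Mrpl11, Mrpl21, Mrpl40, Mrpl49, Mrps6 and Mrps28 had log2 ratios between -0.15 (Mrpl11) and -0.04 (Mrpl49) in the homozygous library, and the counting intervals of all 6 included 0, such as -0.40 to 0.10 for Mrpl11. In the hemizygous library the intervals of Mrpl11 and Mrpl49 included 0. There the lowest of these was -0.37, for Mrps6, and Mrpl39 stood at -0.48. Under the same-sum scaling the homozygous ratios of these 6 genes were above 0, from 0.27 for Mrpl11 to 0.38 for Mrpl49, and that of Mrpl39 was -1.15.

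In the homozygous library the other initiation genes lay nearer to WT than Eif4g1 did, while in the hemizygous library Eif2b5, at -0.18, and Eif4a2, at 0.16, lay farther from WT than Eif4g1, at 0.14. Eif1ad had a homozygous log2 ratio of 0.09, Eif2b5, the catalytic subunit of the exchange factor eIF2B, had 0.00, and Ncbp2, a subunit of the nuclear cap-binding complex, had -0.15. Among genes of elongation, termination and recycling, N6amt1, a subunit of the methyltransferase that modifies eRF1, had 0.09, and Abcf3 had -0.13. Of the assembly factors, Rrn3, an initiation factor of RNA polymerase I, had 0.09, Gtpbp4, a nucleolar GTPase, had 0.05, and Urb1 had -0.13.

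Of quality control, Ltn1, the ubiquitin ligase that acts on stalled large subunits, had a homozygous ratio of -0.25 (interval -0.41 to -0.09) and a hemizygous ratio of -0.09, whose interval of -0.24 to 0.06 included 0. Upf3a, of nonsense-mediated decay, had -0.04 in the homozygous library (interval -0.16 to 0.08). The mitochondrial tRNA synthetase gene Yars2 had the highest homozygous ratio of the 21, at 0.46 (value 130.4 against 94.6 in WT), and Cars2 had -0.09. Rps6kb2, which encodes the S6 kinase S6K2, had a value of 236 in the homozygous library and 308 in the hemizygous library, against 358 in WT, with log2 ratios to WT of -0.60 and -0.22. Elavl1, an RNA-binding protein, was at -0.06 in the homozygous library. Under the same-sum scaling the only homozygous ratios below 0 among the 21 were those of Mrpl39 and Rps6kb2.

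**Figure D5:**
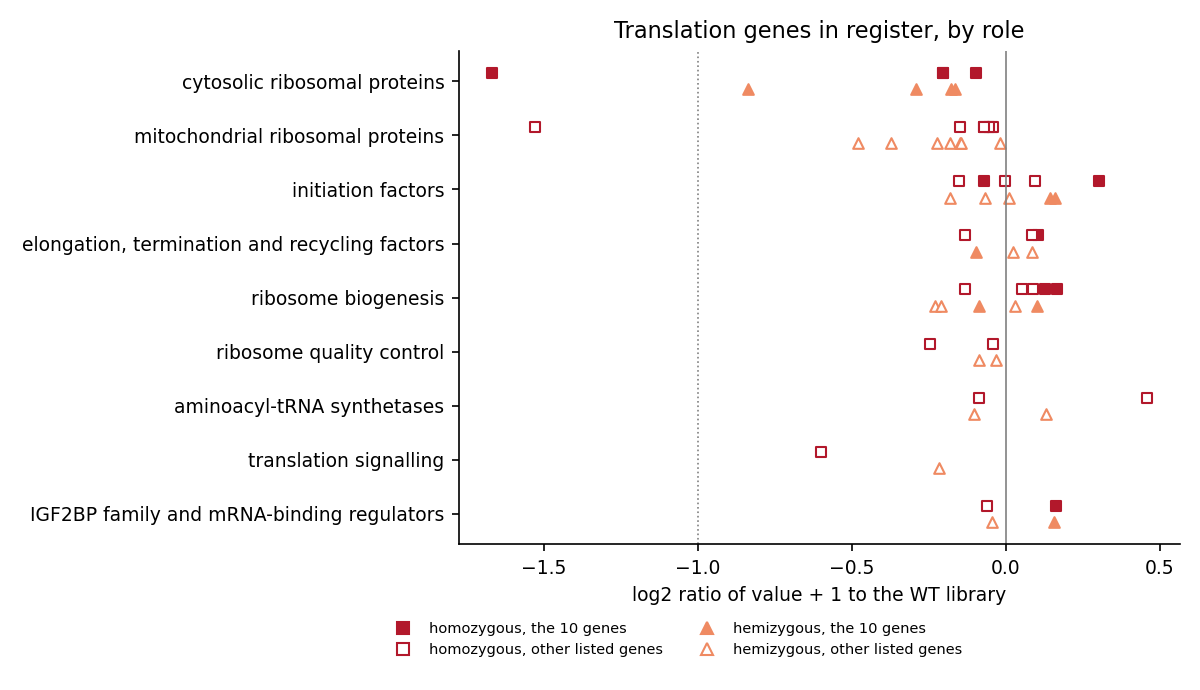
Log2 ratio of value + 1 to the WT library for the 31 translation genes in register, by role; squares are the homozygous library, triangles the hemizygous library, filled symbols the 10 genes and open symbols the other listed genes, and the dotted line marks 2-fold lower. Rpl39l and Mrpl39 lie past that line in the homozygous library, at -1.67 and -1.53.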

How the data were processed

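Gene expression was deposited by the authors as FPKM per gene with a status, 1 table per library. The submitters' processing notes list TopHat2, Bowtie2, Cufflinks and the mouse build mm9, with no version. Annotation, strand setting and fragment length were not stated there or in the labels. The deposited FPKM summed to far more than the unit allows, so all values were divided by 1 constant. The highest row per gene identifier with status OK was used. Breaks between readable and unreadable stretches were fitted by maximum likelihood on GENCODE M21 gene order, and a break was kept at a gain of at least 10 in log likelihood, a rule settled while looking at the values. Where values can be read, a gene was measured in a comparison if at least 1 library had a value of at least 1. Differences are log2 ratios of value + 1. A ratio with this pseudocount understates the change of low genes.

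The unit of 1 fragment was read from low values, of which 61.7% (homozygous), 59.3% (hemizygous) and 61.3% (WT) were whole within 0.05 at a fragment length of 200 bases, beside 10% by chance. That length was chosen because it gave the highest share of 6 lengths tried. At 300 bases the shares were 37.5%, 36.4% and 38.2% for the homozygous, hemizygous and WT libraries. Fragments per gene use the median transcript length, and the longest transcript gives totals of 4791950, 5902550 and 5612140 in the homozygous, hemizygous and WT libraries, so intervals are approximate. The identifier of the Rpl24 row belongs to Zbtb11 in GENCODE M21, and the transcripts of Rpl24 were used for its fragments.

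With 1 library a genotype, no test was run. The members, the lists by role and the ratios within a library were chosen with earlier results of these data known. All 10 genes, every listed gene in register and the 5 genes nearest to Rpl39l were named by rule. Steps were tested on simulated data. Python 3.11.15, pandas 2.3.3, numpy 2.4.6, scipy 1.17.1 and matplotlib 3.10.9 were used.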

Additional observations from a re-analysis of the deposited data

How the results depend on the processing

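Alternatives were other pseudocounts, other minimum values, other scalings and summed rows of a gene identifier. The counts of the 10 genes past 2-fold were the same under every alternative run. Under the same-sum scaling the median log2 ratio of the 10 genes moved to 0.44 for homozygous versus WT, 0.064 for hemizygous versus WT and 0.33 for homozygous versus hemizygous, as every gene shifts together there. The other scalings moved it by less than the median counting half-width of the 10 genes (0.093 to 0.095), to 0.06 (median ratio) and 0.09 (nuclear sum) for homozygous versus WT, -0.12 and -0.04 for hemizygous versus WT, and 0.13 and 0.09 for homozygous versus hemizygous. Of the log2 ratios of single genes under other pseudocounts and scalings, 116 moved by less than their counting error and 34 by more, and none past 2-fold changed sign.

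The numbers of all genes past 2-fold, higher and lower, were 20 and 22 for homozygous versus WT, 17 and 9 for hemizygous versus WT, and 16 and 28 for homozygous versus hemizygous. Under the same-sum scaling they were 44 and 11, 21 and 6, and 30 and 16. With a pseudocount of 5 they were 1 and 9, 4 and 0, and 1 and 8. With a pseudocount of 0.1 they were 29 and 31, 27 and 16, and 28 and 46. With a minimum value of 5 they were 10 and 12, 7 and 1, and 5 and 14. With fragments from the longest transcript, the intervals of Rpl35a, Lsg1 and Igf2bp2 against WT no longer include 0, at -0.17 to -0.03, 0.07 to 0.26 and 0.09 to 0.24 in the homozygous library and -0.23 to -0.10, 0.01 to 0.20 and 0.08 to 0.23 in the hemizygous library. Rpl39l rests on 8.24 to 31.5 fragments, the fewest of the 10 genes. No paired analysis was possible because each genotype has 1 library. Leaving out a replicate was not run for the same reason.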

Other observations

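Although most ribosomal protein genes could not be read, several rows of their processed pseudogenes held high values. These rows were singled out after their values were seen. Of 223 rows named as pseudogenes of ribosomal proteins or of the 10 genes, 160 were listed at 0 in all 3 libraries, 41 had a WT value of at least 1, and 10 were in register. Of those in register, 5 had a value in any library. Rps24-ps2 had a value of 6686 in the homozygous library and 7177 in the hemizygous library, against 8586 in WT. Rpl27-ps3 had 4460.3 and 4297, against 5051 in WT, and Rpl21-ps14 had 489 and 489.9, against 560.4 in WT. These 3 were below WT in both transgenic libraries, but under the same-sum scaling their homozygous log2 ratios were 0.06, 0.24 and 0.22. The other 2 were low: Rpl26-ps4 had 2.58 in the homozygous library and was listed at 0 in the hemizygous library, against 2.11 in WT, and Rpl21-ps5 had 2.52 and 6.01, against 4.58 in WT. Rpl19-ps11, outside the readable segments on chromosome 8, had 3526 and 3370.3, against 3704 in WT. Rps10-ps2 and Rpl31-ps12, which the annotation does not place, had WT values of 4467 and 2975.

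Paralogs of the 10 genes lay outside the readable segments. Eif4a1 was listed at 2.59, 3.95 and 3.65 and Eif4g3 at 24.97, 23.7 and 10.9 in the homozygous, hemizygous and WT libraries, and Gspt2 was listed at 0 in all 3. Between coding sequences, Gspt1 and Gspt2 matched at 84.3% of aligned bases, Eif4a2 and Eif4a1 at 78.1%, Igf2bp2 and Igf2bp3 at 71.2%, Igf2bp2 and Igf2bp1 at 70.9%, and Eif4g1 and Eif4g3 at 66.0%.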
